A study of Mus musculus with 4 samples.

Results

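The genes described here are 10 cytokine genes of innate inflammation: Il1a, Il1b, Il1rn, Il6, Il10, Il12b, Il18, Tnf, Osm and Lif. They were taken by gene symbol, and all 10 were found among the 23420 symbols of the deposited table. RNA was sequenced from myeloid cells that infiltrate cutaneous squamous cell carcinoma, a skin cancer of keratinocytes, in FVB/N mice. The cells were sorted for CD11b, a myeloid integrin, and CD200R1, the inhibitory receptor for the surface protein CD200. In the WT group, 2 libraries came from orthotopic tumours of wild-type genotype, described as CD200 positive. In the EpiKO group, 2 libraries came from orthotopic tumours of genotype K14Cre;CD200fl/fl, in which a Cre recombinase under the keratin 14 promoter removes Cd200 from epidermal cells. The myeloid cells are not cells in which the keratin 14 promoter is known to act, so their own Cd200 allele is not the intended target. Whether that allele was intact was not tested. The labels give no age, sex, litter or batch, and do not say whether the replicates were separate mice or pools, so the p-values measure the spread between these libraries, which may be technical. The comparison addresses how loss of epidermal CD200 changes RNA levels in tumour myeloid cells that bear its receptor.

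Interleukin-1 alpha and interleukin-1 beta (Il1a, Il1b) signal through the same receptor, which the antagonist encoded by Il1rn blocks. Interleukin-6, oncostatin M and leukaemia inhibitory factor (Il6, Osm, Lif) share the signalling chain gp130, which activates the transcription factor STAT3. Tumour necrosis factor (Tnf), interleukin-18 (Il18) and the p40 chain of interleukins 12 and 23 (Il12b) promote inflammation, while interleukin-10 (Il10) restrains it. Macrophages make most of these cytokines when NF-kB and related factors are active, and CD200 binding to its receptor is known as a brake on such activation.

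The windows around the transcription start are shown for the 2 genes with the largest positive log2 fold changes (Il6 and Il1a), for the neighbour of Il1a on the chromosome (Il1b), and for Tnf, whose values lay on the other side. Each runs 5′ to 3′ on the strand of the gene, from 250 bases before the start to 50 after it, from RefSeq on GRCm38.p6. Capitals mark matches, on both strands, to any of 6 motifs: GGG and CC with 5 bases of any kind between them for NF-kB, TTGNGCAA for C/EBP, TGANTCA for AP-1, TGACGTCA for the cyclic AMP response element, TTCNNNGAA for STAT factors and TATAAA for the TATA box.
Il6, chr5:30012864-30013163, plus strand: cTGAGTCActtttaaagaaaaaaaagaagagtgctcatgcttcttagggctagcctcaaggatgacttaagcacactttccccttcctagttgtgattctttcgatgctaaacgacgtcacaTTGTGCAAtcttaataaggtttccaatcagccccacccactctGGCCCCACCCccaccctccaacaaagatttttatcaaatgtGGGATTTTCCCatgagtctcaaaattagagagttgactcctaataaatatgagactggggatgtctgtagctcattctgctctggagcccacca
Il1a, chr2:129309923-129310222, minus strand: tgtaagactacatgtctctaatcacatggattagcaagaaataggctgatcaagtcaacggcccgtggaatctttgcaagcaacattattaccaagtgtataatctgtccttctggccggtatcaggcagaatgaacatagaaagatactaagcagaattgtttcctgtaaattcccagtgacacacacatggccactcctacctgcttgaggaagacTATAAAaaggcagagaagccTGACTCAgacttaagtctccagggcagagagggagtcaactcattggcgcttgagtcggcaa
Il1b, chr2:129371090-129371389, minus strand: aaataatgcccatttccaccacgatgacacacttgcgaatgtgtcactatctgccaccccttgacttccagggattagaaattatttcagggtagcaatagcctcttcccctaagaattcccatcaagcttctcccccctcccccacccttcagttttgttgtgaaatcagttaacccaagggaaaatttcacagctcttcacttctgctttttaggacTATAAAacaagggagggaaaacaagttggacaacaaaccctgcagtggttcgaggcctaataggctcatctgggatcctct
Tnf, chr17:35201958-35202257, minus strand: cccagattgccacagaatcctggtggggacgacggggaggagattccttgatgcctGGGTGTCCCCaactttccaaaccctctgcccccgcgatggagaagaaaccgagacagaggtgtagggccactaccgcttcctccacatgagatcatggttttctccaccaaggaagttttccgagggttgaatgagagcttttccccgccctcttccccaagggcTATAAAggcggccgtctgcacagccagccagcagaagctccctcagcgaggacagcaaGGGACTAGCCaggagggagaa

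Of the 10 genes, 8 had a window in the RefSeq table, and Il10 and Osm were not matched there. The C/EBP letters were found in Il6 alone, at position -128 from the start, against 2.94% of 32851 windows of the same length. Il6 also held the NF-kB letters at -85 and, in 2 overlapping matches, at -44 and -43. The NF-kB letters were present in Il1rn, Tnf and Lif as well, and in 50.8% of all windows. The AP-1 letters were found in Il1a at -12, in Il6 at -249, and in Il1rn and Lif, against 7.81% of all windows. Il1a and Il1b both held the TATA letters, at -32 and -31, and Tnf held them at -29. Il18 and Il1rn held them on the other strand, at -175 and 15, the latter in 1 of 3 windows for Il1rn. Over all windows the share with the TATA letters was 13.6%. None of the windows of these 8 genes held the cyclic AMP or STAT letters, which were in 1.79% and 8.30% of all windows. A match of letters is a description and not a binding site.

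The libraries held between 15884132 and 21244158 reads on genes. Levels are given as normalised read counts, on which scale 1 read is worth 0.841 to 1.16. Cd200 was at 92.7 and 59.7 in WT tumours, against 17.2 and 15.1 in EpiKO tumours (a log2 difference of -2.14, SE 0.371, adjusted p = 0.0794 by limma). Which cells gave these Cd200 reads was not tested, so the values do not check the labels. Cd200r1, on which the cells were sorted, was at 318 and 293 in WT tumours, against 1101 and 612 in EpiKO tumours. Itgam, the gene of CD11b, was at 26151 and 26738 in WT tumours, against 40692 and 30075 in EpiKO tumours, and all 12 macrophage markers were present in every library. In WT replicate 1 genes of basal keratinocytes stood apart, with Krt14 at 1907 against 28.6 in WT replicate 2 and 8.61 and 18.9 in EpiKO. The other keratinocyte and tumour genes are given beside the results they touch.

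Il6 and Il1a had the largest differences of the 10 genes, Osm and Lif lay in the same direction, Tnf and Il12b lay in the opposite one, and Il10 differed least. None of the 10 was called by limma at a Benjamini-Hochberg adjusted p under 0.05, where 0.947% of the 12463 tested genes were called (0.417% higher and 0.53% lower). At an unadjusted p under 0.05, limma gave 5 of the 10 (Il6, Il1a, Osm and Lif higher in EpiKO, Tnf lower), against 15.6% of all tested genes (8.07% higher and 7.57% lower). DESeq2 on the reads called 3 of the 10, Il6, Il1a and Osm, all higher in EpiKO, where it called 6.85% of the tested genes (3.73% higher and 3.12% lower). The edgeR quasi-likelihood test called none with the same filter, where it called 0.842% (0.385% higher and 0.457% lower). Without the filter it called Il6 alone of the 10, higher in EpiKO, where it called 2.29% (1.19% higher and 1.1% lower). In 7 of the 10 genes the 2 WT libraries did not overlap the 2 EpiKO libraries, 5 of them higher and 2 lower in EpiKO, against 47.1% of the tested genes (23.3% higher and 23.8% lower). The median log2 fold change of the 10 was 0.54, beside -0.0021 over all tested genes. All 10 passed the filter on low values, and 9 reached a value of at least 10 in all 4 libraries, Il12b being the exception. Leaving out any 1 library gave no call among the 10 by limma, in fits that kept few or none of the calls over all tested genes. In libraries of sorted cells, a change in the share of cells that make a transcript and a change in RNA per cell cannot be told apart.

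**Figure D1:**
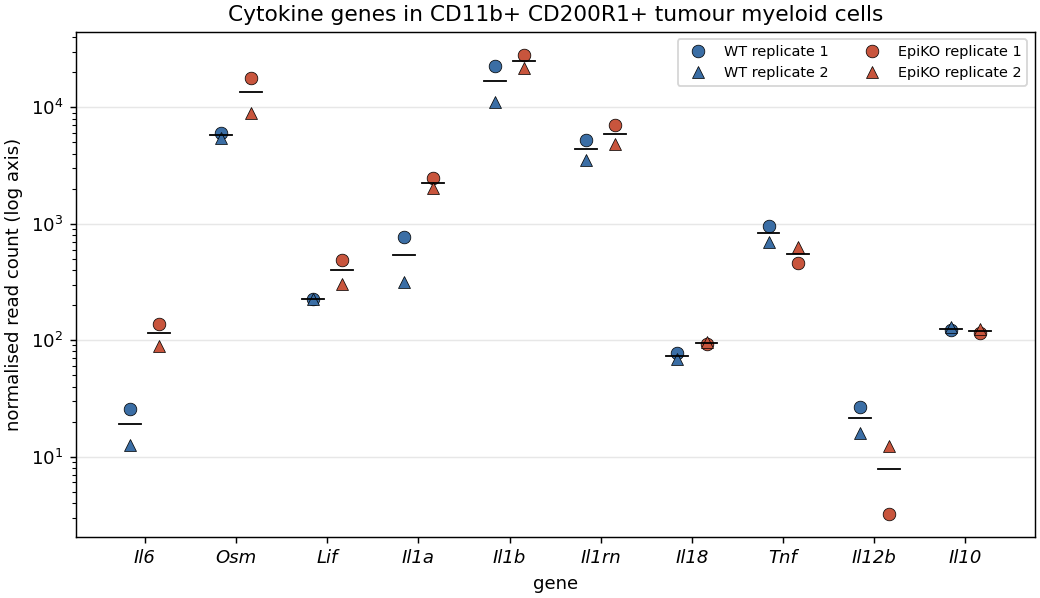
Normalised read count (log axis) of the 10 cytokine genes in each library, WT in blue and EpiKO in red, with circles for replicate 1, triangles for replicate 2 and a line at the mean of each group. Il6 and Il1a lie higher in EpiKO than in WT with no overlap, Tnf and Il12b are lower, and Il10 stays between 115 and 129 in all 4.

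Il6, the archetype of the gp130 cytokines, was at 25.5 and 12.6 in the WT libraries and at 139 and 89.8 in the EpiKO libraries. Both EpiKO libraries were thus above both WT libraries, and the lower EpiKO value was well above the higher WT value. The means were 19.1 ± 9.12 (SD, n = 2) and 114 ± 34.7 (SD, n = 2). The log2 fold change was 2.57 (SE 0.454), and with an adjusted p of 0.0816 by limma it did not pass the test. The transcript was rare in WT, with 22 and 15 reads against 129 and 95 in EpiKO. From the pooled reads, the EpiKO over WT ratio was 6.25 (exact 95% interval 4.40 to 9.11, counting error only). By DESeq2 the adjusted p was 0.000223, the lowest of 15 alternatives, over which it reached up to 0.263. Without any 1 library the log2 fold change of Il6 was between 2.09 and 3.05. In mm10 the gene spans bases 30013114 to 30019981 of chromosome 5.

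Osm, a macrophage product that acts on fibroblasts and epithelium, was at 6062 and 5418 in WT tumours, against 17879 and 8968 in EpiKO tumours. The groups did not overlap, but the EpiKO libraries differed from each other by 1.99 times. The means were 5740 ± 456 and 13423 ± 6301 (SD, n = 2 each), with a log2 fold change of 1.14 ± 0.338 (SE, with an adjusted p of 0.209 by limma). DESeq2 gave an adjusted p of 0.00358, and the range over the 15 alternatives was 0.00358 to 0.522. Without EpiKO replicate 1 the log2 fold change was 0.65, and without EpiKO replicate 2 it was 1.64. Osm is on chromosome 11 from 4236420 to 4241026, and Lif begins 16530 bases downstream of it on the same strand, from 4257557 to 4272514.

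Lif, the closest relative of oncostatin M, was at 224 in both WT libraries and at 489 and 304 in EpiKO. Both EpiKO values were above the WT values, with a log2 fold change of 0.78 ± 0.251 (SE, with an adjusted p of 0.237 by limma) and means of 224 ± 0.0759 and 397 ± 130 (SD, n = 2 each). As with Osm, EpiKO replicate 1 was the higher of the pair, and without it the log2 fold change of Lif was 0.44. Fibroblasts are another known source of interleukin-6 and leukaemia inhibitory factor. All 10 fibroblast markers were present, with summed values of 32984 and 22109 in WT tumours against 21260 and 30754 in EpiKO tumours. Positive log2 fold changes were found for 7 of them and negative ones for 3, with a median of 0.13. By limma, 3 were higher and 0 lower at an unadjusted p under 0.05, against 8.07% and 7.57% of all tested genes. Of the 10, Col6a3, a collagen VI chain, rose by 1.54 in log2 units (SE 0.153, with an adjusted p of 0.0371 by limma). Col6a3 is outside the naming rule and was picked with its values known. The highest of the fibroblast genes, Col3a1, was at 17999 and 11540.3 in WT tumours against 8619 and 10633 in EpiKO tumours. The part of these cells in the Il6 and Lif values was not tested.

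Il1a, an alarmin that is active without processing, was at 769.6 and 314 in WT tumours, against 2465 and 2039 in EpiKO tumours. The groups were far apart although the WT libraries differed by 2.45 times. The means were 542 ± 323 and 2252 ± 301 (SD, n = 2 each), a fold of 4.16, with a log2 fold change of 2.19 ± 0.432 (SE, with an adjusted p of 0.107 by limma). DESeq2 gave an adjusted p of 1.39e-05, within a range of 1.39e-05 to 0.267 over the 15 alternatives. Keratinocytes also make Il1a, and WT replicate 1, with the high Krt14, was the higher WT library. Without that library the log2 fold change was 2.83, and without WT replicate 2 it was 1.54. The 15 keratinocyte and tumour markers summed to 7173 and 757 in WT and to 7214 and 5995 in EpiKO. Of the 8 that were tested, 3 had positive and 5 negative log2 fold changes, with a median of -2.62. Among the negative ones, Krt10, Krt14, Krt17 and Perp were far higher in WT replicate 1 than in any other library. None of the 8 was called by limma, against 0.947% of all tested genes. At an unadjusted p under 0.05 by limma, 2 were higher and 1 lower, against 8.07% and 7.57% of all tested genes. Krt8, a simple keratin gene, reached 1999 and 4164 in EpiKO against 446 and 234 in WT. Krt18, named after its values were seen, was at 698 and 1074 in EpiKO against 121 and 30.3 in WT. Cdh1, the gene of E-cadherin, was at 4437 and 685 in EpiKO against 547 and 361 in WT, and so made up most of the sum in EpiKO replicate 1. Sfn, an epithelial gene named after its values were seen, lay the other way, at 6.46 and 2.84 in EpiKO against 179.7 and 40.3 in WT. Of the 15, none was at 0 in WT replicate 1, 2 in WT replicate 2, 1 in EpiKO replicate 1 and 3 in EpiKO replicate 2. Epithelial markers thus lay on both sides between the groups, and the part of epithelial cells in the Il1a values was not tested. Il1a lies on chromosome 2 from 129299610 to 129309972 on the minus strand, and shares exon sequence with Gm14023 on the other strand, which had between 3 and 8 reads in each library.

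Il1b, which needs cleavage by caspase-1, was the most abundant of the 10 genes per length of exon in both groups. It was at 22635.5 and 11011.5 in WT tumours, against 27988 and 21729.9 in EpiKO tumours. Here the groups overlapped, because WT replicate 1 lay between the EpiKO libraries. The means were 16824 ± 8219 and 24859 ± 4425.0 (SD, n = 2 each), and the log2 fold change was 0.64 (SE 0.370, adjusted p = 0.501 by limma). Without WT replicate 2 it was 0.12, and without WT replicate 1 it was 1.16. Il1b lies 54597 bases from Il1a on the same strand, from 129364570 to 129371139, and shares exon sequence with Il1bos on the other strand. If reads were counted without regard to strand, those of Il1a and Il1b are mixed with those of their antisense partners, and the strand setting is not given in the sources used here.

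Il1rn, the receptor antagonist, was at 5231 and 3523 in WT tumours, against 6999.6 and 4799 in EpiKO tumours, so that the groups overlapped. Its log2 fold change was 0.43 (SE 0.271, adjusted p = 0.542 by limma), with means of 4377 ± 1208 and 5899 ± 1556 (SD, n = 2 each). Without WT replicate 2 it was 0.15, without EpiKO replicate 1 it was 0.16, without WT replicate 1 it was 0.72 and without EpiKO replicate 2 it was 0.71. Per kilobase of exon, the level of Il1rn relative to the sum of Il1a and Il1b was 0.0771 and 0.107 in WT tumours against 0.0794 and 0.0698 in EpiKO tumours. The difference of -0.0176 was smaller than the spread within WT (SD 0.0213, exact permutation p = 0.667, two-sided, where 2 libraries against 2 cannot give less than 0.333).

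The ratio of Il1a to Il1b, picked with its values known, separated the groups with little spread inside them. Per kilobase of exon, Il1a stood at 3.28% and 2.75% of Il1b in WT and at 8.51% and 9.07% in EpiKO. The means were 3.02% ± 0.378 and 8.79% ± 0.394 (SD, n = 2 each), a fold of 2.91. The exact permutation p was 0.333, the smallest this design can give. Because both genes are read in the same library, a single scaling factor per library leaves the ratio unchanged. The WT libraries differed by 2.45 times in Il1a and by 2.06 times in Il1b, in the same direction.

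**Figure D2:**
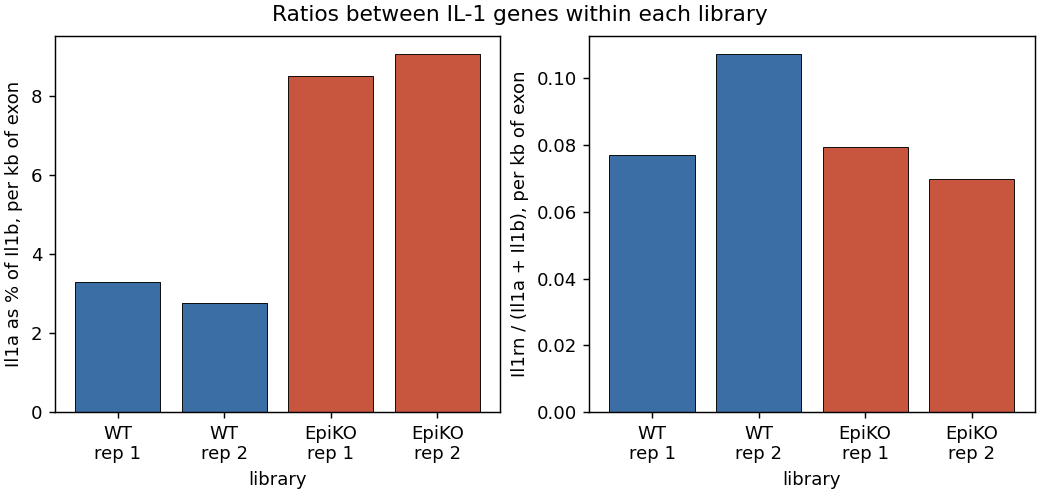
Ratios within each library on the scale of normalised read count per kilobase of exon, for Il1a as a percentage of Il1b (left) and for Il1rn over the sum of Il1a and Il1b (right), WT in blue and EpiKO in red. The Il1a percentage is 2.75 to 3.28 in WT and 8.51 to 9.07 in EpiKO, while the Il1rn ratios of the groups overlap.

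Il18, a caspase-1 substrate like Il1b, was at 77.7 and 68.9 in WT tumours, against 92.6 and 96.4 in EpiKO tumours. The EpiKO values were above the WT values by a small step, a log2 fold change of 0.36 ± 0.229 (SE, with an adjusted p of 0.540 by limma). The means were 73.3 ± 6.17 and 94.5 ± 2.70 (SD, n = 2 each). Il1rn and Il18 lie on chromosomes 2 and 9, from 24336853 to 24351494 and from 50554827 to 50581840, on the plus strand.

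Tnf was at 963 and 701 in WT tumours, against 464 and 628 in EpiKO tumours. Every EpiKO value was below every WT value, opposite to Il6 and Il1a. The log2 fold change was -0.60 (SE 0.226, adjusted p = 0.301 by limma, and 0.234 to 0.728 over the alternatives), with means of 832 ± 185 and 546 ± 116 (SD, n = 2 each). Without WT replicate 1 it was -0.38 and without WT replicate 2 it was -0.83. Tnf lies on chromosome 17 from 35199381 to 35202007 on the minus strand.

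Il12b was near the limit of detection, at 26.7 and 15.97 in WT tumours, against 3.23 and 12.3 in EpiKO tumours. The groups did not overlap, with 23 and 19 reads in WT against 3 and 13 in EpiKO. The mean value was 21.3 ± 7.56 in WT and 7.76 ± 6.40 in EpiKO (SD, n = 2 each). The log2 fold change was -1.53 (SE 0.730, adjusted p = 0.402 by limma), and the WT over EpiKO ratio from the pooled reads was 2.54 (exact 95% interval 1.40 to 4.84, counting error only). It rested on EpiKO replicate 1, without which the log2 fold change was -0.71. Dendritic cells are a known source of this chain. Their 9 markers summed to 387 and 250 in WT and to 164 and 338 in EpiKO, lowest in the library where Il12b was lowest. The markers did not move as 1 group. Of the 7 that were tested, 4 had positive and 3 negative log2 fold changes, with a median of 0.024. The negative ones were Ccr7, Batf3 and Flt3. Ccr7 was at 116 and 56.3 in WT against 32.3 and 35.9 in EpiKO (a log2 difference of -1.22, adjusted p = 0.258 by limma). Batf3 was at 109 and 37.8 in WT against 19.4 and 88.8 in EpiKO, and Cd209a at 56.8 and 29.4 against 43.1 and 71.8. Xcr1 and Clec9a, which define a dendritic cell subset, had at most 2.32 in any library. The part of dendritic cells in the Il12b values was not tested. Il12b is on chromosome 11 from 44400063 to 44414033.

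Il10 was at 122 and 129 in WT tumours, against 115 and 125 in EpiKO tumours. The 4 values lay close together and the groups overlapped, with a log2 fold change of -0.061 ± 0.194 (SE, with an adjusted p of 0.922 by limma). Its mean was 125 ± 4.88 in WT and 120.0 ± 6.76 in EpiKO (SD, n = 2 each). Over the 15 alternatives the log2 fold change was between -0.12 and -0.0041. Il10 is on chromosome 1 from 131019845 to 131024974.

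**Figure D3:**
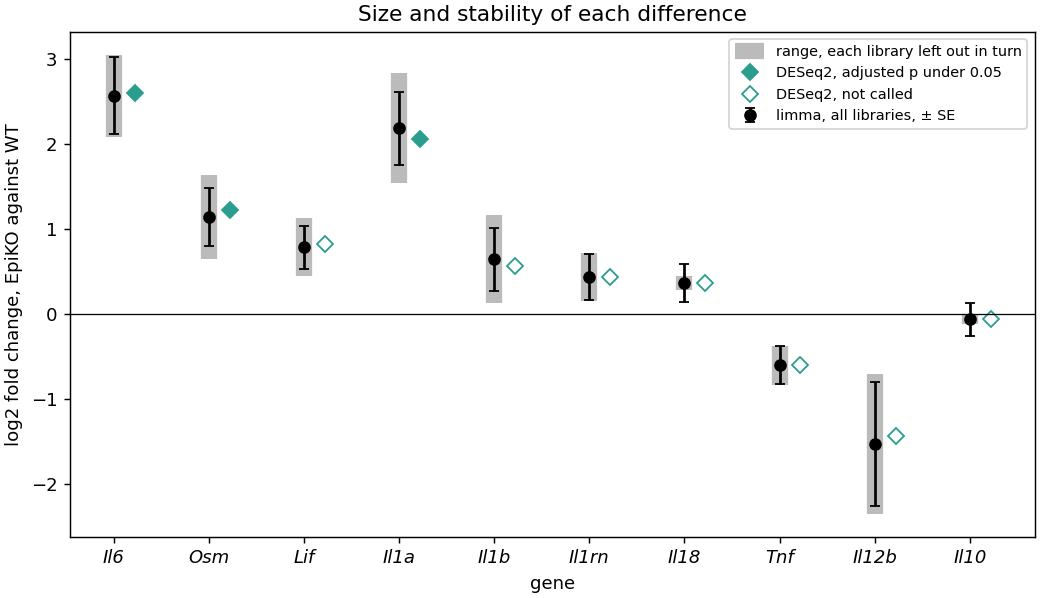
Log2 fold change of EpiKO against WT for each cytokine gene, as black points with standard errors from limma, grey bars for the range when each library was left out in turn, and diamonds for DESeq2, filled where its adjusted p was under 0.05. Il6, Il1a and Osm have filled diamonds, and no grey bar crosses 0, which it could not do in the 7 genes whose groups do not overlap.

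Compared per kilobase of exon, the mean levels in WT ran from Il1b (8822 per kilobase) through Osm (2526), Il1rn (791), Tnf (508), Il1a (274), Il10 (95.5), Il18 (71.1) and Lif (51.4) to Il12b (10.8) and Il6 (7.85). Only the last neighbours, Il12b and Il6, overlapped between WT libraries. In EpiKO the order was Il1b (13036), Osm (5908), Il1a (1141), Il1rn (1066), Tnf (333), Il18 (91.6), Il10 (91.6), Lif (91.2), Il6 (47.1) and Il12b (3.94). There Il1a and Il1rn overlapped, as did Il18 with Il10 and Il10 with Lif. Il1a thus stood below Il1rn and Tnf in both WT libraries, and above Tnf and level with Il1rn in EpiKO. The lengths are unions of all annotated exons in GENCODE M21, which may exceed the transcripts present.

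Receptors for these cytokines showed no call. Of 16 genes for receptors and binding proteins 15 were tested, none was called by limma, and the median log2 fold change was 0.027. At an unadjusted p under 0.05 there were 3 of the 15, near the share of 15.6% over all tested genes. Osmr, the receptor chain for oncostatin M, was at 52.2 and 35.3 in WT tumours, against 90.4 and 99.2 in EpiKO tumours (a log2 difference of 1.12 ± 0.304 SE, adjusted p = 0.175). Il6ra, the receptor chain that binds interleukin-6, was at 2422 and 2681 against 2032.5 and 2039 (a log2 difference of -0.32). Il1r1, the signalling receptor for both interleukin-1 forms, was scarce, at 75.3 and 31.9 in WT tumours against 132 and 83.2 in EpiKO tumours, and had a log2 difference of 1.08 (SE 0.496), which was 0.47 without WT replicate 2 and 1.69 without WT replicate 1. Il18rap, a chain of the interleukin-18 receptor, had a log2 difference of 1.51 (SE 0.543), which was 0.85 without WT replicate 1 and 2.16 without WT replicate 2. The shared chain Il6st and the interleukin-10 receptor gene Il10ra, outside the naming rule and chosen after their values were seen, had log2 fold changes of 0.027 and -0.20.

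Among genes that mature or release the interleukin-1 family and Tnf, 1 of 16 tested was called by limma, against 0.947% of all tested genes. This was Mefv, the gene of the inflammasome sensor pyrin, which fell by 1.73 in log2 units (SE 0.121, with an adjusted p of 0.0329), from 1417 ± 106 in WT to 427 ± 30.4 in EpiKO (SD, n = 2 each). Casp4, a caspase that senses lipopolysaccharide, was at 916 and 633 in WT tumours, against 310.0 and 362 in EpiKO tumours (a log2 difference of -1.18, adjusted p = 0.0854). Adam17, the sheddase that releases Tnf from the membrane, had a log2 difference of -0.40 (SE 0.114), and the calpain gene Capn1 one of 0.31 (SE 0.108). The caspase-1 gene Casp1 and the sensor Nlrp3, outside the naming rule and chosen after their values were seen, had log2 fold changes of -0.16 and 0.089.

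Transcription factors of cytokine genes gave no call among 28 tested, and their median log2 fold change was -0.18. At an unadjusted p under 0.05 by limma, 6 of the 28 were lower and 3 higher, against 7.57% lower and 8.07% higher over all tested genes. The genes with the smallest p on this list were 4 of the NF-kB subunit genes, all at lower values in EpiKO. Rel was at 1229.8 and 1178 in WT tumours, against 775 and 639.8 in EpiKO tumours (a log2 difference of -0.77 ± 0.133 SE, adjusted p = 0.0788). Nfkb2 was at 3201 and 3186 against 2057 and 2123 (a log2 difference of -0.61 ± 0.101 SE, adjusted p = 0.0733). Relb and Rela had log2 fold changes of -0.58 ± 0.134 and -0.46 ± 0.119 (SE). In each of these 4 genes, taken for their small p, both EpiKO libraries were below both WT libraries, as in 23.8% of all tested genes. The remaining subunit gene, Nfkb1, named after its values were seen, overlapped between the groups, at 3194 and 3549.8 in WT against 3278 and 3052 in EpiKO (a log2 difference of -0.090). DESeq2 called Rel and Nfkb2, at adjusted p of 0.00252 and 0.000904, and the ranges over the alternatives reached 0.287 and 0.282.

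A further list held 20 genes that act on cytokine transcripts or signals, most of them as brakes, though Arid5a is known for the opposite action. Of the 20, 2 were called by limma, both lower in EpiKO, where 0.53% of all tested genes were called lower. The median log2 fold change of the list was -0.20. By limma, 8 of the 20 were lower and 2 higher at an unadjusted p under 0.05. Over all tested genes these shares were 7.57% and 8.07%. Nfkbie, an inhibitor that holds NF-kB in the cytoplasm, fell by 1.22 (SE 0.136, adjusted p = 0.0425), from 4114 ± 521 to 1761 ± 121 (SD, n = 2 each). Dusp2, a phosphatase of MAP kinases, fell by 1.30 (SE 0.162, adjusted p = 0.0471), from 846 ± 54.1 to 344 ± 60.8. The call of Dusp2 was lost with equal library totals (adjusted p = 0.0514), with quantile normalization (0.0506) and with edgeR (0.0517). Arid5a, an RNA-binding protein known to stabilise the Il6 transcript, was at 2506 and 2191 in WT tumours, against 1186 and 1436 in EpiKO tumours (a log2 difference of -0.84 ± 0.144 SE, adjusted p = 0.0769). Tnip1, a partner of the NF-kB inhibitor A20, had a log2 difference of -0.52 (SE 0.117). Zc3h12a, the nuclease that degrades the Il6 transcript, was named after its values were seen, and was at 4584 and 3399 in WT tumours, against 2766 and 1863 in EpiKO tumours (a log2 difference of -0.80, adjusted p = 0.230).

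Of 18 targets of interleukin-6 and interleukin-10 through STAT3 none was called by limma, and the median log2 fold change was -0.24. At an unadjusted p under 0.05, 2 were higher and 5 lower, against 8.07% and 7.57% of all tested genes. Bcl3, a modulator of NF-kB, was at 1635 and 1418 in WT tumours, against 807 and 859 in EpiKO tumours (a log2 difference of -0.87 ± 0.121 SE, adjusted p = 0.0550). Lcn2, an iron-scavenging protein, had a log2 difference of -1.67 (SE 0.308), and is also among the neutrophil markers and the interleukin-1 and Tnf targets. Etv3, a repressor induced by interleukin-10, had one of -0.64 (SE 0.131) and Timp1, a protease inhibitor, one of 0.73 (SE 0.190). Socs3, the feedback inhibitor of gp130 signalling, named after its values were seen, was at 15447 and 13486 in WT tumours, against 10748 and 13489.9 in EpiKO tumours (a log2 difference of -0.26).

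Of 17 tested targets of interleukin-1 and Tnf, 1 was called higher and 2 lower by limma, against 0.417% and 0.53% of all tested genes. The median log2 fold change was -0.077, with values on both sides. By limma, 5 of the 17 were higher and 5 lower at an unadjusted p under 0.05, against 8.07% and 7.57% of all tested genes. Traf1, an adaptor of Tnf receptors and a classical NF-kB target, fell by 2.33 (SE 0.139, adjusted p = 0.0329), from 1067 ± 41.3 to 212 ± 25.9 (SD, n = 2 each). Birc3, an inhibitor of apoptosis, fell by 1.05 (SE 0.117, adjusted p = 0.0425), from 3108 ± 50.2 to 1505 ± 146. Nfkb2, given with the transcription factors, and Lcn2, given with the STAT3 targets, are also on this list, as is the neutrophil marker Mmp9. The monocyte attractant Ccl7 rose by 1.15 (SE 0.141, adjusted p = 0.0471), from 3106 ± 337 to 6886 ± 724, and missed the threshold by edgeR with the same filter (adjusted p = 0.0517). Other chemokine genes of the list, named after their values were seen, lay on the side of Ccl7: Cxcl3 had a log2 fold change of 2.57, Ccl2 one of 1.37 and Cxcl2 one of 1.23. Leaving out any 1 of the 4 libraries ended the calls of Mefv, Nfkbie, Dusp2, Traf1, Birc3 and Ccl7, and nearly all other calls by limma. The log2 fold changes of these 6 genes kept their sign, which was fixed because their groups did not overlap. Without the trend, limma called Traf1 alone of these 6, where it called 31 of all 12463 tested genes, against 118 with the trend.

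**Figure D4:**
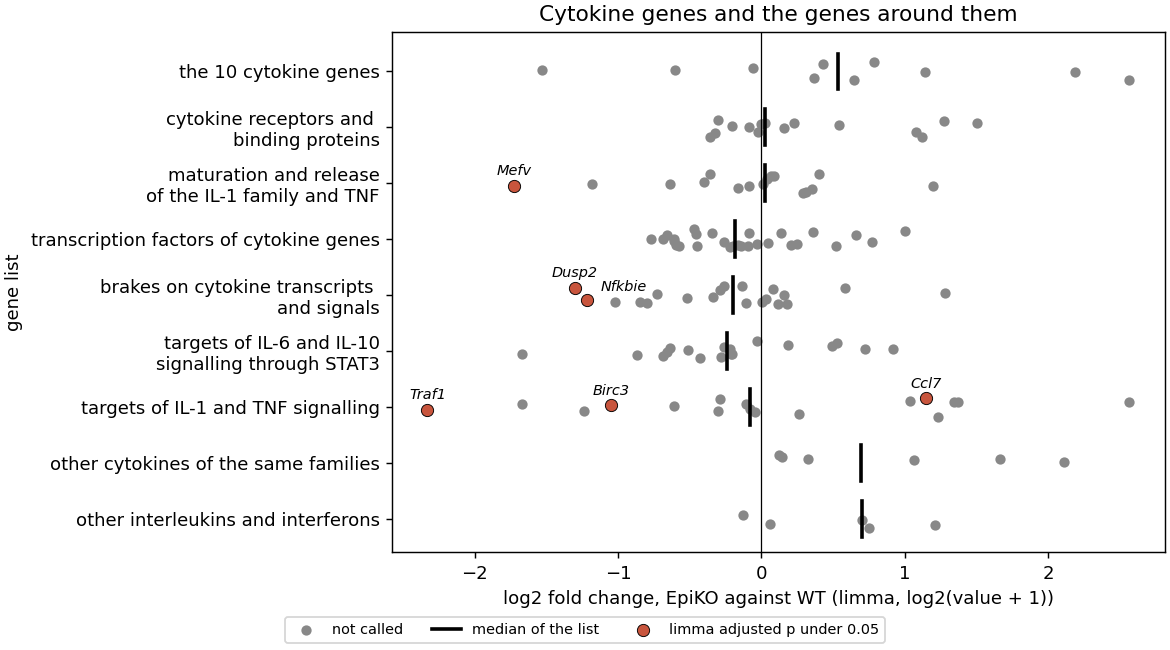
Log2 fold change of EpiKO against WT for each tested gene of the cytokine set and of 8 lists of related genes, with red points for genes called by limma and a black line at the median of each list. Of 116 tested genes in the 8 lists 6 are called, against 0.947% of all 12463 tested genes. Mefv, Dusp2, Nfkbie, Traf1 and Birc3 are on the lower side and Ccl7 on the higher, and none of the 10 cytokine genes is called.

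Neutrophils carry CD11b and are a known source of Il1b, Il1rn and Osm. Their 12 matched markers summed to 6918 and 6138 in WT and to 6844 and 4607 in EpiKO, with 1 at 0 in WT replicate 1 and 1 in EpiKO replicate 1. S100a8, named after its values were seen, was at 81.1 and 459 in WT tumours, against 184 and 84.1 in EpiKO tumours. Mmp8 was at 167 and 222 in WT against 3757 and 847 in EpiKO, and so made up most of the sum in EpiKO replicate 1. Mmp9 was at 4120.5 and 2325 in WT against 1307 and 1311 in EpiKO, and Csf3r at 1154 and 1215 against 514 and 1323. Of the 11 neutrophil markers tested, 9 had negative log2 fold changes and 2 positive ones, with a median of -0.88. None was called by limma, against 0.947% of all tested genes. At an unadjusted p under 0.05 by limma, 3 were lower and 1 higher, against 7.57% and 8.07% of all tested genes. Mmp8, highest in EpiKO replicate 1 as Osm was, thus differed from most of the list. Retnlg, named after its values were seen, was at 55.6 and 166 in WT against 7.54 and 20.8 in EpiKO. The part of neutrophils in the values of Il1b, Il1rn and Osm was not tested.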

How the data were processed

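The deposited table gives each gene a normalised signal. From its values, the authors scaled read counts by a single factor per library: divided by that factor, 100% of values came within 1e-06 of a whole read, so the reads could be recovered. The submitters' processing notes name bcl2fastq 2.17, STAR 2.5.2b, featureCounts 1.5.0-p3, DESeq2 and mm10. Annotation, strand setting and handling of multiply aligned reads are not given in those sources. The 12463 genes that reached 10 in 2 or more of the 4 libraries were compared on log2(value + 1) with limma 3.58.1 in R 4.3.3 (trend, robust, no covariate, two-sided). This scale understates changes of low genes. Adjusted p-values are Benjamini-Hochberg values over all tested genes. Count tests of the recovered reads called 105 genes with edgeR 4.0.16 (quasi-likelihood, TMM) and 854 with DESeq2 1.42.0.

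The members and lists were chosen with earlier results of these data known. The 17 lists beside the members held 250 entries, of which RefSeq synonyms gave 3 and 2 were not found. Named genes are the 10 members, up to 4 genes per pathway list with the smallest p, up to 3 markers per cell type with the highest mean, and for Il6 and Il1b the 5 tested genes with a mean of at least 50 nearest in centred log2 values. Other named genes were chosen after their values were seen. Alternatives were 2 other pseudocounts, 2 other filters, 2 other scalings, limma without trend or robust moderation, 3 fits on reads, and leaving out each library. Gene coordinates are from GENCODE M21 on mm10. Intervals are exact binomial (Clopper-Pearson) intervals for pooled reads. They cover counting error only, since reads were not tagged by molecule and may be copies of each other.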

Additional observations from a re-analysis of the deposited data

How the results depend on the processing

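With 1 library left out, the single library remaining in that group takes its variance from the other group. No paired analysis was possible because the replicate numbers follow sample order and pair nothing. Over all genes, limma called 118, against 31 without the trend, 372 by edgeR without a filter, 854 by DESeq2 (465 higher and 389 lower, against 52 and 66 by limma) and 0 to 4 with 1 library left out. Of the 10 cytokine genes limma called 0, edgeR without a filter called 1, DESeq2 called 3, and limma with 1 library left out called 0. Of the 116 tested genes in the 8 related lists limma called 6, against 1 without the trend and 25 by DESeq2. Without a filter, edgeR tested 132 genes of these lists and called 13. The shares over all tested genes were 0.947% by limma, 6.85% by DESeq2 and 2.29% by edgeR without a filter. Why the tools differ was not tested. The difference in the Il1rn ratio was -0.0176, and between -0.0327 and -0.0025 with 1 library left out. All 10 cytokine genes kept the sign of their log2 fold change in each of the alternatives in which they were tested. For the 7 whose groups did not overlap, leaving out 1 library could not change the sign. Among the pathway genes named by the rule Il15 alone changed sign, and it was also the only one whose groups overlapped. Its values were between -0.30 and 0.049 when 1 library was left out, and 0.049 without WT replicate 1. Il12b could not be tested with the filter at 50. With 2 libraries per group, counts of 3 reads (values of 2.52 to 3.48) limit what can be seen of Il12b.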

Other observations

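Among 20 other genes of the same cytokine families, 14 were under the filter on low values. The alarmin gene Il33 was at 37.1 and 48.8 in WT tumours, against 215 and 163 in EpiKO tumours, with a log2 fold change of 2.12 (SE 0.275). Its adjusted p by limma lay just outside the threshold of 0.05, and over the alternatives, of which 5 called it, the adjusted p was between 4.07e-06 and 0.194. Clcf1, a further gp130 cytokine, was at 37.1 and 27.7 in WT tumours, against 64.6 and 71.8 in EpiKO tumours (a log2 difference of 1.06, adjusted p = 0.198 by limma). Il23a, whose product pairs with that of Il12b, was at 20.9 and 4.20 in WT tumours, against 42.0 and 25.5 in EpiKO tumours, a direction opposite to that of Il12b, with a log2 fold change of 1.66 (SE 0.795). Without WT replicate 2 the Il23a difference was 0.63, and without WT replicate 1 it was 2.70. Ltb, a Tnf relative, was at 60.3 and 61.4 in WT tumours, against 65.7 and 88.8 in EpiKO tumours, with a log2 fold change of 0.32 that was 0.11 without EpiKO replicate 2 and 0.54 without EpiKO replicate 1.

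Of 16 further interleukin, interferon and related genes 5 were tested and none was called by limma. By the same test 2 of the 5 had an unadjusted p under 0.05, against 15.6% of all tested genes. Tslp, an epithelial cytokine, and Il34, a ligand of the Csf1 receptor, had log2 fold changes of 1.21 ± 0.427 and 0.75 ± 0.285 (SE), and Il16 and Il15 had 0.70 (SE 0.310) and -0.13 (SE 0.209). The Il16 value was 0.25 without EpiKO replicate 2 and 1.15 without EpiKO replicate 1, and the Il15 value changed sign, to 0.049, without WT replicate 1. The lymphocyte cytokines Ifng, Il17a, Il4 and Il13, named after their values were seen, had no read in any library, which allows up to 3 reads per library, a value of 2.52 to 3.48. Cd3e, which defines T cells, had at most 2.32.

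By distance between centred log2 values over the 4 libraries, the genes nearest to Il6 were Pcdh1, Egln3, Tnfrsf9, Ccl6 and Cdh2, at 0.337 to 0.503 log2 units. Cdh2, at 17.4 and 12.6 in WT tumours against 107 and 94.5 in EpiKO tumours, was the called gene among them (adjusted p = 0.0471 by limma). Nearest to Il1b were Gm15880, Efnb2, Lyz1, Plbd1 and P2ry14, at 0.0935 to 0.225 log2 units. All 5 had their lowest value in WT replicate 2, as Il1b did. With 4 libraries in 2 groups, such likeness is a description of these libraries.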
